A study of Mus musculus with 24 samples.

Results

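CTCF and Rad21 binding was described around 10 genes that control entry into the cell cycle and survival: Myc, Ccnd2, Ccnd3, Cdkn1a, Cdkn1b, Bcl6, Bcl2, Bcl2l1, Bcl2l11 and Abl1. They were chosen by name, and are 10 of the 22130 protein-coding genes whose surroundings could be examined in the same way. For each gene the window was the gene body with 20 kb on each side in mouse build mm9 (GENCODE vM1), and with 200 kb on each side for Myc. Overlapping peaks of all 16 peak lists were joined into sites, which gave 173 sites in the 10 windows out of 90337 on the mouse chromosomes.

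Binding was measured by ChIP-seq, in which DNA bound by a protein is precipitated with an antibody and sequenced. The cells were pro-B lines of the mouse, early B lymphoid cells that the viral kinase v-Abl keeps growing. All lines were RAG2 deficient and carried Emu-Bcl2, a transgene that expresses the survival protein Bcl2 under an immunoglobulin heavy-chain enhancer, and all cells had received 3 µM STI-571, an Abl kinase inhibitor, for 4 days. CTCF ChIP was done on the parental line without IAA (3 libraries) and on the CTCF-degron line with IAA (3 libraries). Rad21 ChIP was done on those same conditions (3 libraries each) and on the Rad21-degron line without IAA (2 libraries) and with IAA (2 libraries). A degron is a tag that lets the auxin IAA trigger degradation of the tagged protein, and IAA was present at 500 µM from 6 h before STI-571 onward. Because no cells went without STI-571, the effect of Abl inhibition on these genes cannot be read from the series. The CTCF-degron line with IAA differs from its control in the line and in IAA, so these cannot be told apart. The Rad21-degron comparison keeps the line and changes IAA alone. The labels do not say whether replicates came from separate cultures or clones, so the spread between them may be technical. Peak lists hold no expression values, and the pro-B identity was not checked here.

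Depth is unknown, since the lists carry no read counts. The mouse peaks per list ranged from 46656 to 52356 for CTCF in the parental line and from 8214 to 15753 after CTCF degradation. For Rad21 they ranged from 29721 to 67809 in the parental line, from 15689 to 35223 after CTCF degradation, were 32912 and 22084 in the Rad21-degron line without IAA, and 3587 and 1383 with IAA. Of the 16 lists, 8 come from libraries with human chromatin (the colon cancer line HCT116) added as a spike-in: all 4 of the Rad21-degron line, and Rad21 replicates 2 and 3 of the parental and CTCF-degron lines. Peaks on human contigs were left out of the sites and windows. They numbered 9640 and 1748 in parental Rad21 replicates 2 and 3, and 1675 and 319 in the CTCF-degron ones. In the Rad21-degron line they numbered 11861 and 14878 without IAA, and 5603 and 5481 with IAA. Peaks on the spike-in chromatin were thus also fewer in the depleted libraries. The reason was not tested, and mouse peak numbers were not adjusted for it.

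As background, Abl signalling drives the transcription factor Myc and the D-type cyclins, which open the way from G1 into DNA synthesis, and it restrains the CDK inhibitors p21 (Cdkn1a) and p27 (Cdkn1b) and the death-promoting protein Bim (Bcl2l11). When the kinase is inhibited, pro-B lines stop dividing in G1, and the Bcl2 transgene keeps them alive. Cohesin, of which Rad21 is a subunit, extrudes loops of DNA and is halted at CTCF bound to its motif, so distal CTCF sites and promoters are both places where it is found.

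For the strongest sites the stretch closest to the core CTCF motif is shown, so that sites with different fates can be compared. For each gene the CTCF site that ranked highest by fold enrichment, as a mean percentile over the 6 parental lists, was taken, and the match closest to the core motif within its strongest parental CTCF peak is printed in capitals. Cdkn1b had no CTCF site by the definition used here, which asks for a peak in all 3 parental CTCF lists. All sequences are mm9 and are read 5′ to 3′ on the strand given. The fate is that of the whole joined site, and the peaks left there need not cover the printed stretch. At Bcl2l11 the strongest ones left were centred from 0.3 kb upstream to 1.5 kb after the gene start. The first group are the sites at which a CTCF peak was found in all 3 libraries after CTCF degradation.
Myc, chr15:61814962-61815021, + strand: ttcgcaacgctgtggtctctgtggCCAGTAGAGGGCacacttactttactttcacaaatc
Ccnd3, chr17:47648268-47648327, + strand: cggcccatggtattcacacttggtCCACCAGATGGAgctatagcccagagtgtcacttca
Cdkn1a, chr17:29232557-29232616, - strand: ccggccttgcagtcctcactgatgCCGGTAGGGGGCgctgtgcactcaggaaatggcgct
Bcl6, chr16:23991385-23991444, + strand: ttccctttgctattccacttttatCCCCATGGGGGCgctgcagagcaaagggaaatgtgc
Bcl2l11, chr2:127951788-127951817, - strand: gagctccaaCCAGCTGGTGACccagtgcct

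At the next sites a CTCF peak was left in a single library (replicate 2) after CTCF degradation.
Ccnd2, chr6:127097864-127097923, + strand: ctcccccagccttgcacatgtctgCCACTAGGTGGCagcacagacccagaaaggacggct
Bcl2l1, chr2:152592384-152592443, - strand: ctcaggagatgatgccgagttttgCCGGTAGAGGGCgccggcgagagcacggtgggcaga

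At the last ones no library had a CTCF peak after CTCF degradation.
Bcl2, chr1:108613984-108614043, - strand: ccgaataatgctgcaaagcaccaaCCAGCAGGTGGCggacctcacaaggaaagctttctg
Abl1, chr2:31640788-31640847, - strand: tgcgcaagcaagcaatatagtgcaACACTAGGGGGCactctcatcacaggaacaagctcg

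The match was exact for Myc, Ccnd2 and Bcl2, had 1 mismatch for Ccnd3, Cdkn1a, Bcl2l1 and Abl1, 2 for Bcl2l11 and 3 for Bcl6. An exact match therefore stood at a site that kept its CTCF peaks (Myc) and at one that did not (Bcl2). Over the 40 CTCF sites of the 10 windows, 10 (25%) held an exact match, against 19.0% of all 33042 CTCF sites outside the hybrid part of chromosome 12. In sequence of the same length 5 kb away the shares were 5% and 1.02%. Allowing 1 mismatch, 30 of 40 (75%) held a match, against 64.7% of all CTCF sites, and 10% and 11.7% 5 kb away. Among the sites that lost CTCF, 21 of 25 held such a match (69.7% over all CTCF sites that were lost), and among those that kept it in all libraries, 6 of 8 (51.2% over all). A match describes the letters in the window and is not evidence of binding.

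A CTCF site is one with a peak in all 3 parental CTCF lists, a site without CTCF has a peak in none of the 6 CTCF lists, and the others are called weak CTCF sites. The 10 windows held 40 CTCF sites (23.1%, against 37.0% of all sites), 63 weak CTCF sites (36.4%) and 70 sites without CTCF (40.5%). In 68 of the 173 sites (39.3%, against 34.6% of all) the peak was found in a single list. The windows differed in their density of CTCF sites. Bcl6 had 6 CTCF sites in 63.8 kb (9.40 per 100 kb) and Abl1 had 11 in 155.9 kb (7.06 per 100 kb). Myc had 2 in 405.0 kb (0.49 per 100 kb), and Cdkn1b had 0 in 45.1 kb. Over all mouse chromosomes there were 1.26 CTCF sites per 100 kb. That value is for the full length of the chromosomes, and the density over the windows of all genes was not calculated. The Myc window also has longer flanks than the others.

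**Figure D1:**
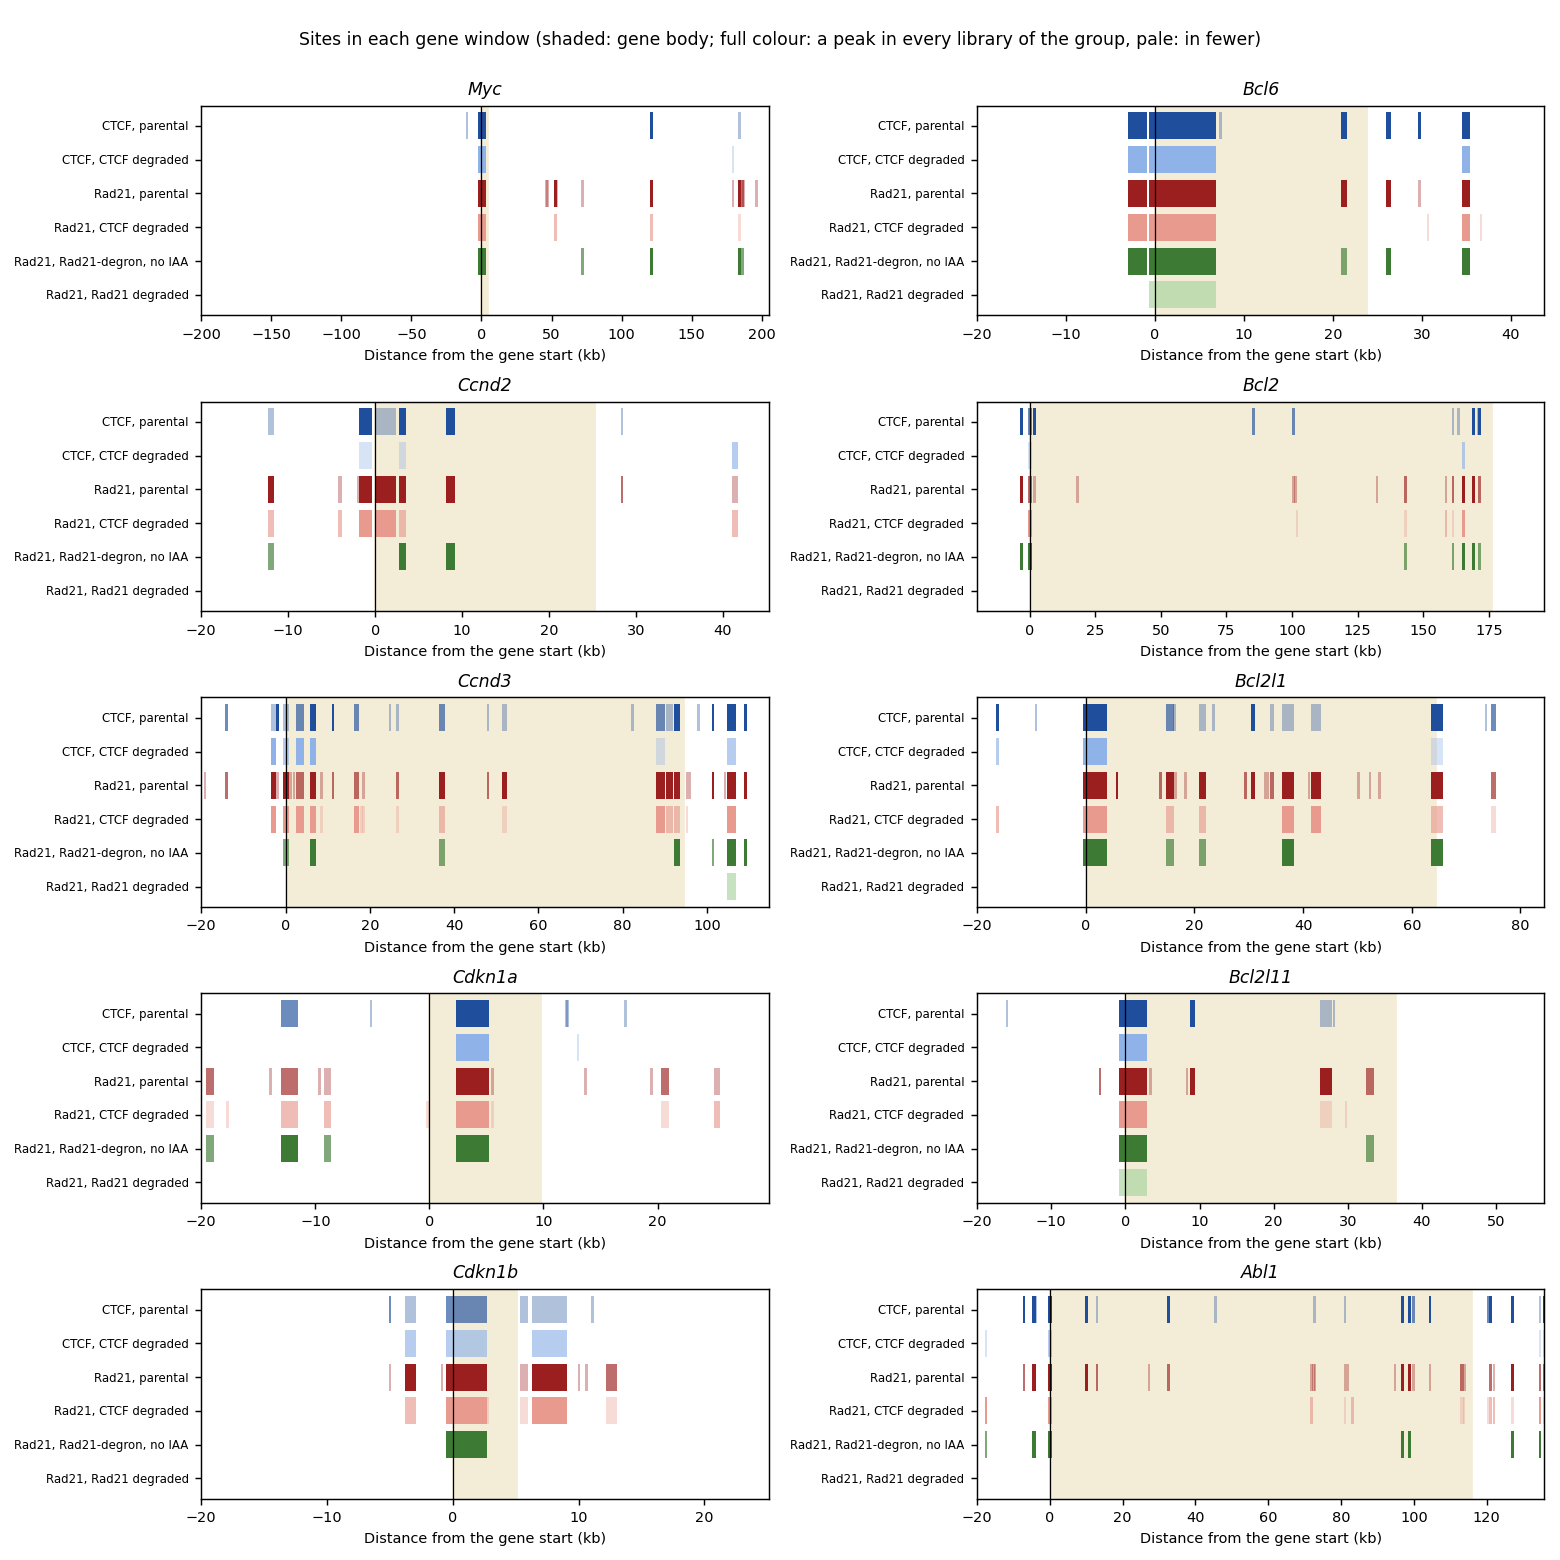
Sites in the 10 gene windows, drawn by distance from the gene start in kb (positive into the gene), with 1 row for each of the 6 groups. Each group has its colour, at full strength for a peak in every library of the group and paler for a peak in fewer. The shaded band is the gene body. In the row of Rad21 after Rad21 degradation a pale site is seen at Ccnd3, Bcl6 and Bcl2l11 alone.

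The first comparison asked how many CTCF peaks remained around each gene when CTCF had been degraded. The number of CTCF peaks in the 10 windows together was 97, 68 and 65 in the parental libraries and 27, 29 and 12 after CTCF degradation (76.7 ± 17.7 against 22.7 ± 9.29, mean ± SD, n = 3 each). In 8 of the 10 windows every depleted library had fewer peaks than every parental one, a pattern found in 71.8% of the 17770 protein-coding windows with a CTCF peak, while the opposite pattern was found in 0.118%. The members' share is thus close to the background. With 3 libraries against 3 the exact two-sided permutation test cannot go below 0.1, which was the value for those 8 genes (adjusted p = 0.139 by Benjamini-Hochberg over all windows), so no single gene passes a threshold of 0.05. The groups overlapped for Cdkn1a (4, 2 and 4 against 3, 1 and 1) and Cdkn1b (8, 3 and 1 against 3, 3 and 0). These windows hold 1 and 0 CTCF sites. When all 6 lists were shortened to the length of the shortest by fold enrichment, the number of such genes was 1 in place of 8, so the counts move with the lengths of the lists. Shortening also removes a loss of peaks spread over the whole genome, so it cannot show whether the count of 8 holds. The share of all windows was not calculated for shortened lists. Per 1000 peaks of the list, the 10 windows held 1.85, 1.43 and 1.39 CTCF peaks in the parental line and 1.74, 1.84 and 1.46 after CTCF degradation, and these ranges overlap.

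The second comparison asked how many Rad21 peaks remained when CTCF had been degraded. The 10 windows held 139, 103 and 72 Rad21 peaks in the parental libraries and 92, 67 and 43 after CTCF degradation (104.7 ± 33.5 against 67.3 ± 24.5, n = 3 each), and these ranges overlap. Only Bcl2l1 and Bcl2l11, coding for the survival protein Bcl-xL and for Bim, had fewer peaks in every depleted library, 2 of 10 genes against a background of 21.8% (0.142% for the opposite pattern). Their exact permutation p was 0.1 and the adjusted p 0.455. This count rests on single libraries: it was 6 without parental replicate 3, 5 without CTCF-degron replicate 1 and 5 among the spike-in libraries alone, replicates 2 and 3. The share of all windows moved with it, to 48.6%, 34.1% and 36.3%. Same-numbered Rad21 libraries deviated together for replicates 1 and 3, and this was not seen for replicate 2. The lists also shortened from replicate 1 to replicate 3 in both groups, and the part of list length in these deviations was not tested. Within every same-numbered pair the total was lower after CTCF degradation. So was the number of peaks of 6 genes, Myc, Ccnd2, Ccnd3, Bcl2l1, Bcl2l11 and Abl1, a pattern in 43.3% of all windows. Their exact sign-flip permutation p was 0.25, the smallest that 3 pairs allow. This count by pairs was added after seeing the data. With all lists shortened to the shortest, 0 genes had fewer peaks in every depleted library than in every parental one. The count by pairs and the share of all windows were not recalculated for that setting. The summed difference then turned from a mean of 37.3 fewer peaks to 10.7 more. Per 1000 peaks of the list the windows held 2.05, 2.34 and 2.42 Rad21 peaks in the parental line. After CTCF degradation they held 2.61, 2.58 and 2.74, so every depleted list had the higher share. How often other gene windows show this was not calculated, so it is not a result about the 10 genes.

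The third comparison asked how many Rad21 peaks remained when Rad21 itself had been degraded. The 10 windows held 57 and 40 Rad21 peaks without IAA and 3 and 0 with IAA. All 10 windows had fewer peaks in both libraries with IAA, a pattern in 72% of the 15224 windows with a peak (0.348% for the opposite). With 2 libraries against 2 the smallest exact p is 0.33, and the adjusted p was 0.461. The 3 peaks left were all in replicate 1 and lay at the Bysl and Med20 promoter downstream of Ccnd3, in the first part of Bcl6 and at the Bcl2l11 start. With lists shortened to the shortest the number of genes was 4 in place of 10, and the share of all windows was not calculated for that setting.

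**Figure D2:**
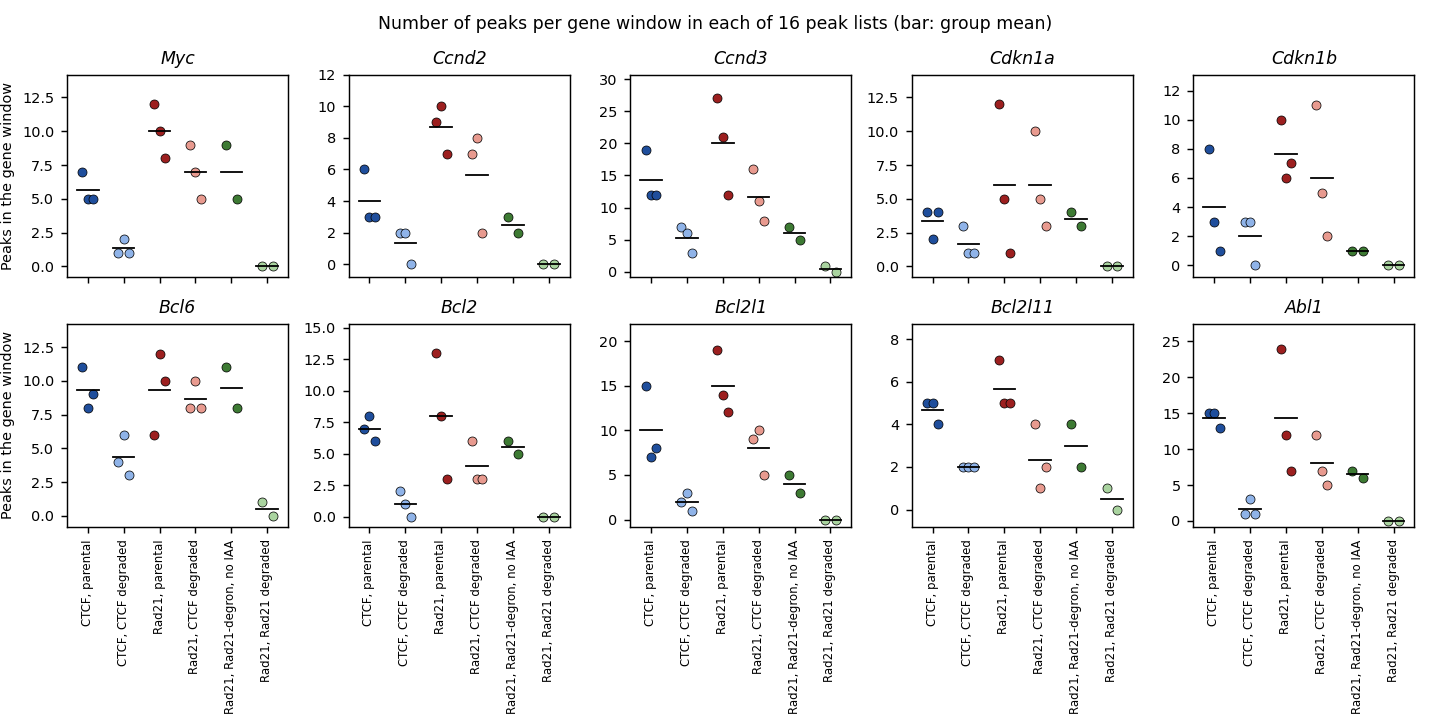
Number of peaks (vertical axis) in each gene window for each of the 16 lists, grouped by antibody and cells; points are libraries and bars are group means. For Abl1 the 3 parental CTCF lists have 13 to 15 peaks and the depleted ones 1 to 3, while for Cdkn1b the CTCF groups overlap.

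A control site is one with a peak in every control library of a comparison. It is called lost when no depleted library has a peak there, kept when all have one and partly kept otherwise. Sites within 1000 bp of an annotated transcript start of any gene are called promoter sites, and the others distal. The 40 CTCF control sites of the 10 windows comprised 25 lost, 7 partly kept and 8 kept. Per library, 27.5%, 35% and 22.5% of them had a peak after CTCF degradation (28.3% ± 6.29, SD, n = 3). Over all 33429 CTCF control sites 69.7% were lost and 13.6% kept, so the members lost 62.5% against that background.

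Promoter and distal CTCF sites are given apart, without a test of their difference. Of the 13 promoter sites 3 were lost, 4 partly kept and 6 kept, and of the 27 distal sites 22 were lost, 3 partly kept and 2 kept. The percentage that had a peak after CTCF degradation was 64.1% ± 8.88 at promoters and 11.1% ± 6.42 at distal sites (n = 3). Over all sites, 43.5% of promoter and 76.6% of distal CTCF sites were lost, so the order is that of the whole genome. The class depends on how sites are joined, since a site can hold several peaks: when the strongest parental peak of each site stood for it, 8 sites were promoter sites, of which 50% ± 12.5 kept a peak, and 20.8% ± 6.51 of the 32 distal ones did. This setting was chosen after seeing the data. When peaks had to cover 50% of a site, 15 control sites were left, 1 of them at a promoter, and all were lost. With 1 promoter site that setting cannot decide on the order. Shortening all lists to the shortest left 14 control sites, of which 57.1% ± 7.14 had a peak after CTCF degradation.

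Rad21 control sites followed the same order. In the 10 windows 49 sites had Rad21 in all 3 parental libraries, and 14 were lost, 15 partly kept and 20 kept after CTCF degradation, against 41.4% lost and 35.7% kept over all 24941 such sites. None of the 15 promoter sites was lost, against 16.3% of all, and 14 of the 34 distal sites were lost, against 50.2% of all. Per library, 97.8% ± 3.85 of promoter and 41.2% ± 20.6 of distal sites had a Rad21 peak, and the low value of the distal sites was in replicate 3 (17.6%). Without parental replicate 3 there were 76 control sites and 28 were lost. Where the site was a CTCF site, 13 of 29 were lost, against 47.8% of all such sites. Where it was not, 1 of 20 was lost, against 12.3% of all.

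At 29 sites of the 10 windows both proteins had control peaks. At 13 of the 16 that lost CTCF, Rad21 was lost as well (81.3%, against 76.3% over all sites), and at the other 3 it was partly kept. At all 8 sites that kept CTCF peaks in every library, Rad21 was kept in every library (100%, against 93.4%). After degradation of Rad21, 27 of 30 control sites were lost and 0 kept, against 92.3% lost over all sites. All 19 distal sites were lost (96% of all distal sites) and 8 of the 11 promoter sites (79.3% of all promoter sites).

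**Figure D3:**
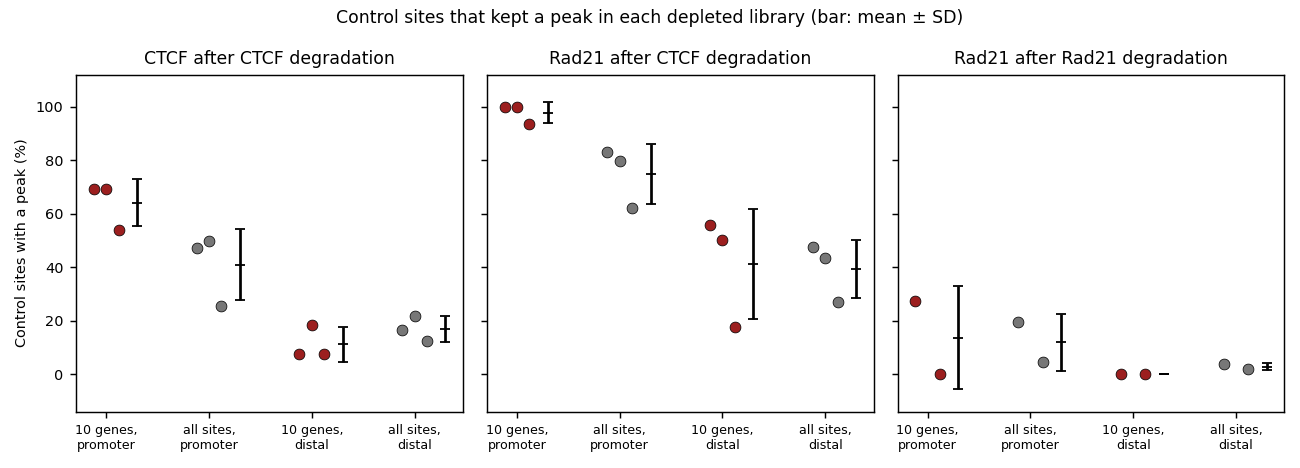
Percentage of control sites that had a peak in each depleted library, for promoter and distal sites of the 10 windows (red) and of the whole genome (grey); bars are mean ± SD. In the CTCF comparison the red promoter points lie between 53.8% and 69.2%, and the red distal points between 7.41% and 18.5%.

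At Myc (chr15:61816946-61821929, + strand), the transcription factor that drives growth, the 13 sites came to 3.21 per 100 kb. Over the full length of all mouse chromosomes there were 3.40 per 100 kb. The named sites were at the gene itself and in Pvt1, a non-coding gene downstream. CTCF peaks per library numbered 7, 5 and 5 in the parental line and 1, 2 and 1 after CTCF degradation. Rad21 peaks numbered 12, 10 and 8 in the parental line, 9, 7 and 5 after CTCF degradation, 9 and 5 in the Rad21-degron line without IAA and 0 and 0 with IAA.

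The strongest Myc site had its parental CTCF peaks centred 1.9 to 2.1 kb upstream of the start. The joined site is 5426 bp wide and reaches over the start, which is why it counts as a promoter site. Its CTCF fold enrichment, the authors' own value for the strongest peak in the list, was 8.16, 9.41 and 12.9 in the parental lists and 5.01, 9.10 and 6.44 after CTCF degradation. The depleted peaks were centred at the same place, 1.9 to 2.0 kb upstream. Rad21 fold enrichment there was 10.4, 15.3 and 10.4 in the parental lists, 11.3, 9.97 and 6.5 after CTCF degradation, and 7.94 and 7.53 without IAA in the Rad21-degron line, with no peak in either library with IAA. Every library except those with degraded Rad21 thus had a peak there. Fold values are comparable within a list, and differences between lists were not tested.

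The highest-ranked distal Myc site lay 121.4 kb downstream, in an intron of Pvt1. It had CTCF at 3.97, 4.91 and 5.33 fold in the parental lists and no CTCF peak after CTCF degradation. Rad21 was there at 6.93, 5.67 and 4.39 fold in the parental lists and at 5.20 and 5.31 fold in CTCF-degron replicates 1 and 2, and not in replicate 3. At the Pvt1 start, 52.7 kb downstream, Rad21 peaks of 5.08, 4.56 and 3.96 fold were found in the parental lists and of 4.86 and 5.10 fold in CTCF-degron replicates 1 and 2, with no CTCF peak in any list.

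Cyclin D2 (Ccnd2, chr6:127075797-127101066, - strand) and cyclin D3 (Ccnd3, chr17:47642000-47736632, + strand) activate Cdk4 and Cdk6 in G1. In the Ccnd2 window CTCF peaks numbered 6, 3 and 3 against 2, 2 and 0 after CTCF degradation, and Rad21 peaks 9, 10 and 7 against 7, 8 and 2. Rad21 peaks in the Rad21-degron line were 3 and 2 without IAA and 0 and 0 with it. The Rad21 groups of the CTCF comparison overlap, because CTCF-degron replicates 1 and 2 lie within the parental range.

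The strongest Ccnd2 site was distal, in an intron 3.1 kb after the start. CTCF fold enrichment there was 11.8, 11.2 and 13.2 in the parental lists, and after CTCF degradation a peak of 4.67 fold was left in replicate 2 alone. Rad21 was at 24.3, 19.9 and 10.1 fold in the parental lists and at 5.67 and 8.57 fold in CTCF-degron replicates 1 and 2. At the promoter, 0.7 kb upstream, the CTCF peaks were weaker (4.64, 3.41 and 5.31 fold) and 1 was left in CTCF-degron replicate 1 (4.08 fold). Rad21 there was 5.10, 7.12 and 4.58 fold in the parental lists and 4.15, 5.35 and 4.06 fold after CTCF degradation. A further promoter site, 1.3 kb after the start, had Rad21 in all 3 parental lists (4.43, 4.89 and 4.46 fold) and all 3 CTCF-degron lists (4.60, 5.24 and 3.99 fold), and CTCF in parental replicate 1 alone (3.44 fold). Neither promoter site had a Rad21 peak in the Rad21-degron line, with or without IAA.

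The Ccnd3 window held 30 sites, and its CTCF peaks numbered 19, 12 and 12 against 7, 6 and 3. Its Rad21 peaks numbered 27, 21 and 12 against 16, 11 and 8 after CTCF degradation, and 7 and 5 against 1 and 0 after Rad21 degradation. The strongest site was in an intron 6.4 kb after the start, and it is a distal site that kept CTCF in all 3 depleted libraries. CTCF fold enrichment there was 15.4, 13.0 and 14.5 in the parental lists and 5.36, 9.65 and 5.68 after CTCF degradation. Rad21 was at 25.5, 22.5 and 12.4 fold against 11.5, 9.28 and 5.91 fold, and at 10.2 and 7.42 fold without IAA in the Rad21-degron line against no peak with IAA.

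At the Ccnd3 start itself Rad21 was found with little CTCF. Its Rad21 peaks were 4.94, 5.28 and 3.96 fold in the parental lists and 6.16, 6.37 and 4.97 fold after CTCF degradation, and CTCF was listed in parental replicate 1 (3.83 fold) and in CTCF-degron replicates 1 and 2 (4.77 and 4.55 fold). The promoter inside the gene, 88.7 kb after the start, had Rad21 in all 3 parental lists (4.73, 5.07 and 4.62 fold) and all 3 CTCF-degron lists (5.04, 4.93 and 4.49 fold). CTCF was listed at this inner promoter in 2 parental libraries and 1 CTCF-degron library. The promoter of the neighbour Taf8, 2.8 kb upstream, had Rad21 at 4.35, 4.92 and 4.46 fold against 6.10, 5.04 and 4.77 fold. CTCF was listed there in 1 parental library (3.56 fold) and in all 3 CTCF-degron libraries (4.65, 4.62 and 4.07 fold).

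The neighbours of Ccnd3 differed in what was left. A site within 1000 bp of a Taf8 start, 1.8 kb upstream of Ccnd3, had CTCF at 3.84, 6.39 and 6.68 fold in the parental lists and in no depleted list. The shared promoter of Bysl and Med20, 105.9 kb after the Ccnd3 start, had CTCF at 10.9, 11.2 and 10.8 fold and was left with 4.83 and 5.84 fold in CTCF-degron replicates 1 and 2. Rad21 at that promoter was 8.19, 7.46 and 5.36 fold against 8.06, 7.63 and 4.78 fold after CTCF degradation, and it was 3.95 and 4.34 fold without IAA in the Rad21-degron line. With IAA it had a Rad21 peak of 5.13 fold in replicate 1.

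p21 (Cdkn1a, chr17:29227924-29237667, + strand) and p27 (Cdkn1b, chr6:134870419-134875531, + strand) inhibit cyclin-dependent kinases. In the Cdkn1a window CTCF peaks numbered 4, 2 and 4 against 3, 1 and 1. Rad21 peaks numbered 12, 5 and 1 in the parental line and 10, 5 and 3 after CTCF degradation, with equal means of 6.0 (SD 5.57 and 3.61). They numbered 4 and 3 in the Rad21-degron line without IAA and 0 and 0 with it. Parental replicate 3 had a single Rad21 peak in this window, and 11 of the 18 sites had a peak in 1 list alone.

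That single peak was at the strongest Cdkn1a site, centred inside the gene at 4.6 to 4.8 kb after the start in the parental CTCF lists, near a second annotated start. CTCF was at 13.8, 11.3 and 14.0 fold in the parental lists and at 7.88, 10.6 and 6.58 fold after CTCF degradation. Rad21 was at 13.5, 16 and 8.47 fold against 10.6, 9.65 and 8.94 fold, and at 9.08 and 7.86 fold without IAA in the Rad21-degron line. All libraries but those with degraded Rad21 had this peak. The site 12.3 kb upstream, at the start of the non-coding gene Gm16197, had Rad21 at 3.87 and 4.71 fold without IAA in the Rad21-degron line and none with IAA. It had Rad21 in parental replicates 1 and 2 (4.28 and 4.41 fold) and CTCF-degron replicates 1 and 2 (4.18 and 4.98 fold), and CTCF in parental replicates 1 and 3 (3.66 and 3.54 fold). The highest-ranked distal site, 20.7 kb after the start, had no CTCF, and Rad21 in parental replicates 1 and 2 (3.82 and 5.08 fold) and CTCF-degron replicate 1 (4.00 fold).

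In the Cdkn1b window CTCF peaks numbered 8, 3 and 1 against 3, 3 and 0, and Rad21 peaks 10, 6 and 7 against 11, 5 and 2. In the Rad21-degron line they were 1 and 1 without IAA and 0 and 0 with it. No site had CTCF in all 3 parental libraries. The promoter site had Rad21 at 5.23, 5.03 and 4.70 fold in the parental lists and at 5.24, 5.36 and 4.31 fold after CTCF degradation. CTCF was listed there in parental replicates 1 and 2 (3.82 and 3.48 fold) and CTCF-degron replicates 1 and 2 (4.91 and 4.56 fold). The 1 Rad21 peak of each Rad21-degron library without IAA was at this promoter (4.05 and 3.87 fold). The highest-ranked distal site, 7.7 kb after the start, also had Rad21 in all 3 parental lists (4.07, 4.75 and 4.69 fold) and all 3 CTCF-degron lists (5.25, 5.35 and 3.99 fold), and none in the Rad21-degron line. CTCF was listed at this distal site in 1 parental and 2 CTCF-degron libraries.

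Bcl6 (chr16:23965138-23988938, - strand) codes for a transcriptional repressor that protects B-lineage cells from death when Abl is inhibited. Its window had CTCF peaks numbering 11, 8 and 9 against 4, 6 and 3. Rad21 peaks numbered 6, 12 and 10 against 8, 10 and 8 after CTCF degradation, and 11 and 8 against 1 and 0 after Rad21 degradation. The Rad21 groups of the CTCF comparison overlap, and the difference of their means, -0.67 peaks, becomes 0.67 without parental replicate 2.

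Bcl6 had strong sites on both sides of its start. Upstream, with parental CTCF peaks centred at 2.4 to 2.5 kb, CTCF was at 9.98, 13.1 and 13.4 fold in the parental lists and 5.55, 7.73 and 5.91 fold after CTCF degradation. Rad21 was at 12, 17.7 and 9.72 fold against 11.3, 10.5 and 6.08 fold, and 7.86 and 6.68 fold without IAA in the Rad21-degron line against no peak with IAA. The other site spans 7587 bp over the start and into the gene, with CTCF at 10.7, 11.2 and 11.4 fold in the parental lists, centred 3.3 to 3.4 kb after the start. After CTCF degradation its strongest peaks (5.69, 8.07 and 4.27 fold) were centred from 0.1 to 4.5 kb after the start, so they did not all lie where the parental ones did. Rad21 there was 11.8, 13.4 and 9.17 fold against 6.00, 8.96 and 5.26 fold, and with IAA in the Rad21-degron line a peak of 5.31 fold was left in replicate 1, centred 0.3 kb after the start.

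Of the 4 distal CTCF sites near Bcl6, 3 lost CTCF in all libraries. The highest-ranked one, 26.3 kb after the start and beyond the 3′ end, had CTCF at 6.09, 6.14 and 9.64 fold and Rad21 at 9.79, 7.07 and 5.14 fold in the parental lists, and neither protein in any CTCF-degron list. Its Rad21 peaks in the Rad21-degron line were 5.55 and 5.52 fold without IAA and absent from the lists with IAA. A site 35 kb after the start was the exception. It kept CTCF (6.45, 6.07 and 8.11 fold against 4.42, 6.67 and 5.44 fold) and Rad21 (11.7, 7.37 and 4.36 fold against 8.85, 8.56 and 4.27 fold). It was singled out after its values were seen.

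**Figure D4:**
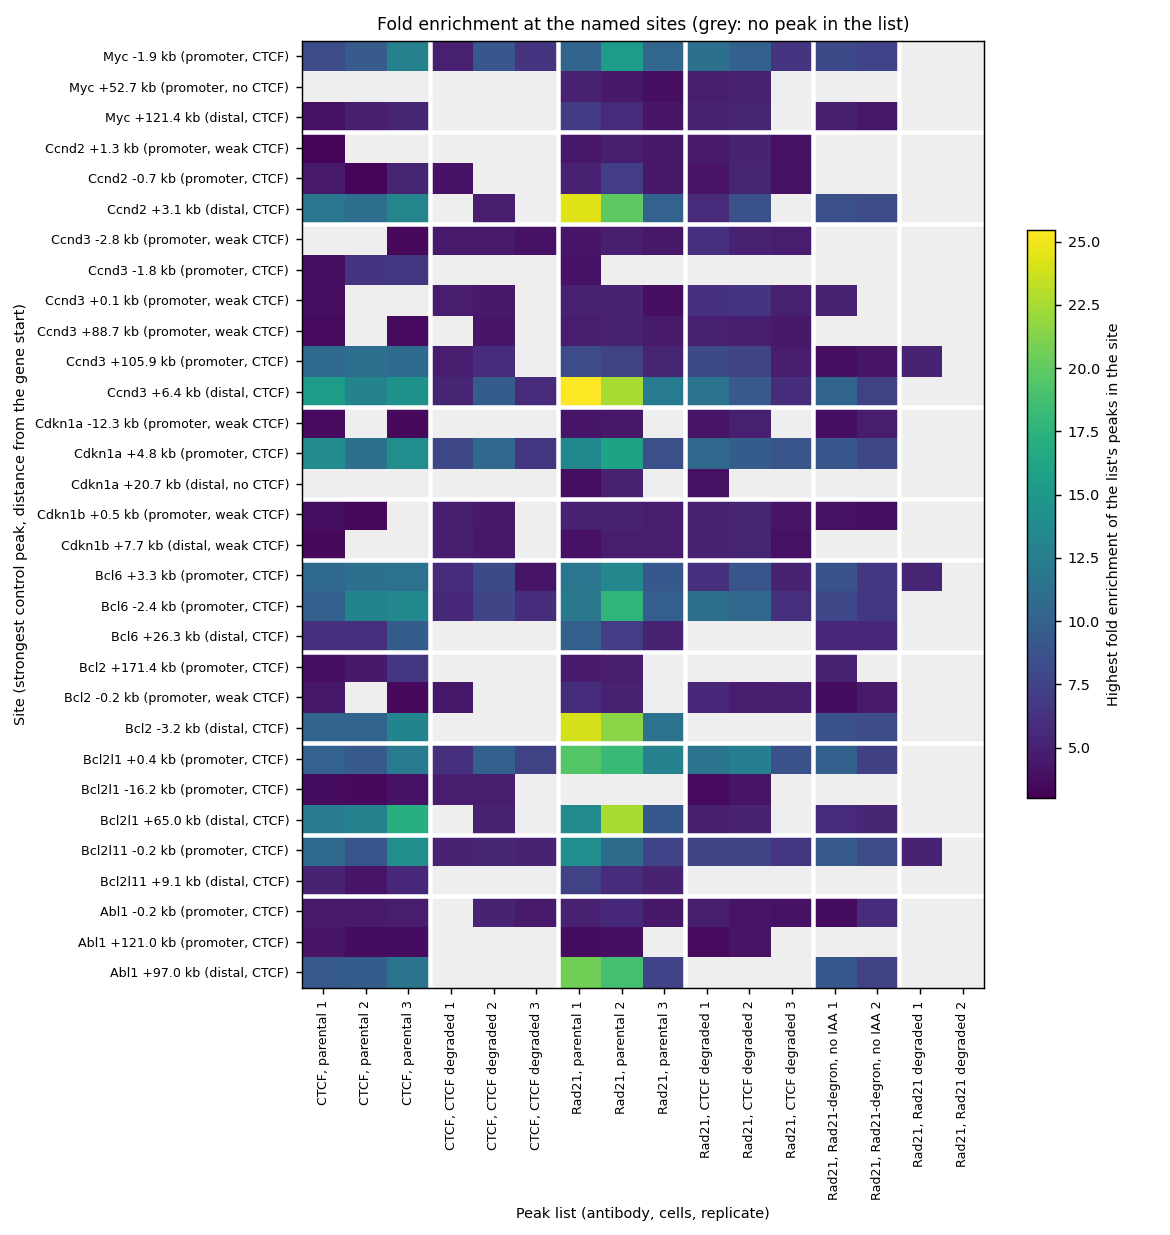
Highest fold enrichment of the peaks of each list (columns) in the named sites (rows, by distance of the strongest control peak from the gene start); grey means no peak in that list. The columns of Rad21 after Rad21 degradation are grey but for 3 sites of replicate 1, and the rows of Bcl2 at -3.2 kb and Abl1 at +97.0 kb are grey in all CTCF-degraded lists.

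Among the Bcl2 family, Bcl2 (chr1:108434755-108610851, - strand) and Bcl2l1 (chr2:152593052-152657464, - strand) code for proteins that prevent cell death, and Bcl2l11 (chr2:127951774-127988283, + strand) for Bim, which promotes it. In the Bcl2 window CTCF peaks numbered 7, 8 and 6 against 2, 1 and 0 after CTCF degradation. Rad21 peaks numbered 13, 8 and 3 against 6, 3 and 3, and 6 and 5 against 0 and 0 after Rad21 degradation. All 4 CTCF sites of this window were lost after CTCF degradation.

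The strongest Bcl2 site lay 3.2 kb upstream of the start. CTCF was at 10.3, 10.2 and 13.1 fold and Rad21 at 24.0, 21.6 and 11.5 fold in the parental lists, and neither had a peak in any CTCF-degron list. Rad21 was at 8.61 and 8.30 fold without IAA in the Rad21-degron line and absent with it. At the Bcl2 promoter the picture differed: Rad21 was in all 3 CTCF-degron lists (5.62, 4.75 and 4.92 fold) and in parental replicates 1 and 2 (5.93 and 5.02 fold). The Rad21-degron lists without IAA had it at 3.75 and 4.63 fold. CTCF was listed there in parental replicates 1 and 3 (4.45 and 3.54 fold) and CTCF-degron replicate 1 (4.49 fold). At the 3′ end, 171.4 kb after the start and within 1000 bp of the start of D630008O14Rik, CTCF was at 3.91, 4.50 and 6.56 fold in the parental lists and in no CTCF-degron list.

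The cells carry a Bcl2 transgene, and reads from it could align to exons of the Bcl2 gene. A CTCF site lay on the 5′ coding exon of Bcl2, whose coding part is chr1:108608882-108609457. The CTCF peaks of the 3 parental lists (10.4, 14.5 and 18.8 fold) all began 6 or 7 bp before the edge of that coding part and were 267 to 280 bp wide. Rad21 parental replicate 1 had a peak of 15.1 fold with the same edge, and no other list of either antibody had a peak there. The part of the transgene in these peaks was not tested. Without this site, a setting also chosen after seeing the data, 24 of 39 CTCF control sites of the 10 windows were lost, and 29.1% ± 6.45 had a peak after CTCF degradation.

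In the Bcl2l1 window CTCF peaks numbered 15, 7 and 8 against 2, 3 and 1. Rad21 peaks numbered 19, 14 and 12 against 9, 10 and 5 after CTCF degradation, and 5 and 3 against 0 and 0 after Rad21 degradation. The promoter site kept CTCF in all depleted libraries, with 10.1, 9.33 and 12.2 fold in the parental lists and 5.98, 9.91 and 7.42 fold after CTCF degradation. Its Rad21 peaks were 19.5, 18.1 and 12.9 fold against 11.7, 12.7 and 8.54 fold, and 9.90 and 7.28 fold without IAA in the Rad21-degron line.

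At the 3′ end of Bcl2l1, 65.0 kb after the start, the site with the highest rank in this window had CTCF at 12.4, 13.0 and 17.2 fold in the parental lists, and a peak was left in CTCF-degron replicate 2 (5.08 fold). Rad21 there was 13.7, 22.5 and 9.15 fold against 4.90 and 5.26 fold in CTCF-degron replicates 1 and 2. The start of Tpx2, 16.2 kb upstream, had CTCF at 3.74, 3.6 and 4.07 fold and was left with 4.70 and 4.79 fold in replicates 1 and 2. Rad21 was not listed there in the parental line, and had 3.66 and 4.17 fold in CTCF-degron replicates 1 and 2.

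In the Bcl2l11 window CTCF peaks numbered 5, 5 and 4 against 2, 2 and 2. Rad21 peaks numbered 7, 5 and 5 against 4, 1 and 2 after CTCF degradation, and 4 and 2 against 1 and 0 after Rad21 degradation. The promoter site had CTCF at 10.7, 9.03 and 14.2 fold in the parental lists and 5.18, 5.41 and 5.17 fold after CTCF degradation. The parental CTCF peaks were centred 0.2 to 0.3 kb upstream, and the depleted ones from 0.3 kb upstream to 1.5 kb after the start. Rad21 was 14.0, 10.9 and 7.54 fold against 7.62, 7.61 and 6.55 fold, and 9.49 and 8.21 fold without IAA in the Rad21-degron line, with 5.16 fold left in replicate 1 with IAA. The distal site 9.1 kb after the start had CTCF at 5.17, 4.29 and 5.50 fold and Rad21 at 7.35, 5.89 and 5.24 fold in the parental lists, and neither in any CTCF-degron list.

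Abl1 (chr2:31543896-31659747, + strand) codes for the cellular Abl kinase, a target of STI-571. In its window CTCF peaks numbered 15, 15 and 13 against 1, 3 and 1, the largest mean difference of the 10 genes (12.7 fewer). Rad21 peaks numbered 24, 12 and 7 against 12, 7 and 5, and 7 and 6 against 0 and 0 after Rad21 degradation. Of its 11 CTCF sites 9 were lost and 2 partly kept. The Rad21 groups of the CTCF comparison overlap, with parental replicate 3 at 7 peaks.

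The Abl1 promoter site had CTCF at 4.62, 4.65 and 4.72 fold in the parental lists and at 5.23 and 4.59 fold in CTCF-degron replicates 2 and 3. Its Rad21 was 5.09, 5.55 and 4.49 fold against 4.86, 4.29 and 4.08 fold, and 3.74 and 5.80 fold without IAA in the Rad21-degron line against none with IAA. The strongest site was distal, in an intron 97.0 kb after the start. CTCF there was 9.34, 9.61 and 11.6 fold and Rad21 20.6, 18.8 and 7.51 fold in the parental lists, with neither in any CTCF-degron list. Rad21 was at 9.19 and 7.43 fold without IAA in the Rad21-degron line. At the start of Qrfp, 121.0 kb after the Abl1 start, CTCF was at 4.19, 3.76 and 3.79 fold in the parental lists and in no CTCF-degron list. Rad21 was listed there in replicates 1 and 2 of the parental (3.75 and 3.96 fold) and CTCF-degron lines (3.66 and 4.22 fold). The cells carry v-Abl, which shares sequence with Abl1. The CTCF sites over Abl1 exons were the one at the start and one 10.0 kb into the gene, and the part of v-Abl reads in them was not tested.

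The pattern over the 10 genes can be set out by rank. The 6 promoter sites that kept CTCF in every library had a median percentile rank of 94.1 (90.1 to 97.7) in the parental CTCF lists, and the 3 lost promoter sites ranked from 28.7 to 53.7. Among distal sites the 22 lost ones ranked from 23.2 to 98.2 with a median of 69.9. The 4 partly kept promoter sites ranked from 24.1 to 93.5. The 2 kept distal sites ranked 69.2 and 98.6, and the 3 partly kept ones from 79.7 to 98.9. In the 10 windows the kept promoter sites thus all ranked high, while the ranks of lost distal sites reached as high as theirs. Over all sites, kept promoter sites ranked from 6.1 to 100. Over all sites the medians were 70.5 for kept and 62.2 for lost promoter sites, and 85.6 for kept and 62.8 for lost distal sites. These are descriptions, without a test.

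Other genes of the same pathways were examined from fixed lists. Of 25 genes of G1 phase and the cell cycle, 18 had fewer CTCF peaks in every depleted library, against 71.8% of all windows, and 0 had more. The median difference was -2.67 peaks (-74.4%), against -2.33 peaks (-78.8%) over all windows. Ccnd1, which codes for cyclin D1, had 4.67 ± 0.58 CTCF peaks in the parental line and 2.0 in each depleted library. Cdk6, a kinase partner of the D cyclins, had 13.0 ± 3.0 against 3.33 ± 2.89. The groups overlapped for 7 genes, among them Trp53, which codes for p53 (3.33 ± 0.58 against 2.33 ± 1.15). For Rad21, 6 of the 25 genes had fewer peaks in every CTCF-degron library (21.8% of all windows), and 17 of the 22 with a peak had fewer in both libraries with degraded Rad21 (72% of all windows).

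Of 20 genes of apoptosis and Abl signalling, 16 had fewer CTCF peaks in every depleted library, against 71.8% of all windows. The median difference was -4.83 peaks (-71.4%), against -2.33 peaks (-78.8%) over all windows. Mcl1, a survival protein of the Bcl2 family, had 7.33 ± 2.08 against 2.33 ± 2.08, and Bax, which permeabilizes mitochondria, 9.33 ± 2.31 against 2.67 ± 1.53. Foxo1, a transcription factor of early B cells, had 10.3 ± 3.21 against 3.33 ± 1.53. For Rad21, 5 of the 20 had fewer peaks in every CTCF-degron library and 14 of the 19 with a peak in both libraries with degraded Rad21. Both Rad21 counts are close to the shares of all windows, 21.8% and 72%.

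By the number of peaks over the 16 lists, each member had a gene elsewhere with a closely similar profile. Pearson's r was 0.97 for Myc with Ube2n, 0.96 for Ccnd2 with Mafg, 0.98 for Ccnd3 with Litaf, 0.96 for Cdkn1a with Pan3 and 0.92 for Cdkn1b with Taz. It was 0.94 for Bcl6 with Ralgds, 0.98 for Bcl2 with Acvr1b, 0.98 for Bcl2l1 with Hivep3, 0.98 for Bcl2l11 with Sirt2 and 0.99 for Abl1 with Arl3. All windows share the 16 lists and their lengths, and these values are a description.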

How the data were processed

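The authors deposited 1 broadPeak list for each immunoprecipitated library, with replicates not pooled; the 8 input libraries were not used here. Per the labels, reads were aligned to an AJ851868/mm9 hybrid genome, and the submitters' processing notes name Bowtie2 2.2.8, SAMtools 1.8, mm9 and hg19. The peak caller, its threshold and the use of inputs are not given in the sources used here. The deposited lists give each peak a fold enrichment over background, which is a linear ratio. The authors also deposited 2 significance columns, -log10(p) and -log10(q), and a score equal to 10 times -log10(q), truncated. The fold was used to describe and rank peaks within a list.

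Mouse peaks of the 16 lists that overlap by at least 1 bp were joined into sites. Genes are GENCODE vM1 and sequences NCBIM37 (mm9). Protein-coding windows on chromosome 12 beyond the hybrid boundary were left out. The number of peaks per window was compared with exact two-sided permutation tests over all protein-coding windows, with Benjamini-Hochberg adjustment, in Python 3.11.15 with NumPy 2.4.6; figures used Matplotlib 3.10.9. The functions were tested on simulated data. The members and lists were chosen with earlier results of these data known. Named were every promoter site with a peak in all libraries of a control group, the distal site of highest mean parental rank, and, for likeness, the gene of highest r with at least 5 peaks in 1 list and a window elsewhere.

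Replicate numbers are shared between groups. Deviations from group means over all windows correlated at 0.68, 0.22 and 0.69 between same-numbered Rad21 libraries of the parental and CTCF-degron lines. These numbers were taken as pairs, and that hint comes from the data. Parental replicate 2 correlated at 0.24 with CTCF-degron replicate 3, so the pairing of replicate 2 is not shown by these values. Mouse peaks per Rad21 list fell from replicate 1 to replicate 3 in both groups. They numbered 67809, 43924 and 29721 in the parental line and 35223, 25948 and 15689 in the CTCF-degron line. The part of list length in the correlations was not tested. Alternatives are in the closing section. The result of 1 gene of the pathway lists is not reported here.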

Additional observations from a re-analysis of the deposited data

How the results depend on the processing

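Peak lists give no read counts, so depth limits every value to an unknown degree, and the shorter lists hold the fewest sites. With every list of a comparison shortened to its shortest, the difference in peaks over the 10 windows was -1.67 (CTCF), 10.7 (Rad21 after CTCF degradation) and -5.50 (Rad21 degradation), against -54.0, -37.3 and -47.0. The genes with fewer peaks in every depleted library then numbered 1, 0 and 4. The share of all windows was not calculated for shortened lists, so these counts are not a result about the 10 genes. Control sites lost were 5, 7 and 4, and for CTCF the percentage kept was 57.1% in all, 95.2% at promoters and 19.0% at distal sites. Single genes that changed sign under that setting were Myc (0.33), Ccnd3 (0.67), Cdkn1a (0.33), Cdkn1b (0.67) and Bcl2l11 (1.0) for CTCF, Myc (2.67), Ccnd3 (4.33), Cdkn1b (2.33), Bcl6 (1.33) and Bcl2l1 (0.33) for Rad21 after CTCF degradation, and Bcl6 (0.50) after Rad21 degradation. All lists but the shortest hold fewer peaks by construction, and a loss of peaks spread over the whole genome is removed as well. This setting therefore cannot show whether the differences hold. The cause of the changes was otherwise not tested, here and below.

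With a q-value of 0.001 or less, the difference was -27.7 for CTCF and -22.5 for Rad21 degradation, 83.3% of promoter CTCF sites were kept, Rad21 after CTCF degradation was kept at 42.9% of sites and 85.2% of promoter sites, 14 sites were lost after Rad21 degradation, and Cdkn1a (0.33) and Cdkn1b (0.33) turned sign for CTCF. With 50 kb each side the differences were -76.0 and -63.5, the sites lost 41 (CTCF) and 24 (Rad21 after CTCF degradation), and the latter comparison had 1 gene with fewer peaks throughout. The share of all windows was not calculated with 50 kb. Requiring 50% of a site to be covered left 15 CTCF control sites, 1 of them at a promoter, and all were lost (0% kept at promoters and distal sites). It left 14 Rad21 sites with 8 lost, 26.2% kept (60% promoter, 7.41% distal). Sites of at least 1 control library gave 74 lost and 17.3% kept for CTCF (54.0% at promoters), 74 lost and 31.9% kept for Rad21 after CTCF degradation (69.0% at promoters), and 43 lost after Rad21 degradation. Promoters within 500 bp kept CTCF at 73.3%, and within 2500 bp at 51.0% (Rad21 80.0%). The strongest control peak gave 50.0% at promoters and 20.8% at distal sites for CTCF. The motif share was 75.0% with 1 mismatch. Among spike-in libraries 5 genes had fewer Rad21 peaks throughout, against 36.3% of all windows.

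Leaving out each library, the sites lost ranged from 25 to 30 (CTCF), 14 to 28 (Rad21 after CTCF degradation) and 27 to 41 (Rad21 degradation; 41 without the replicate 2 without IAA). For Rad21 after CTCF degradation, promoter sites kept ranged from 89.5% to 100%, and genes with fewer peaks from 2 to 6 (22.4% to 48.6% of all windows). The Rad21 difference after CTCF degradation ranged from -2.33 to 0.67 for Bcl6 (0.67 without parental replicate 2), and from -4.17 to 0.33 for Cdkn1b (0.33 without CTCF-degron replicate 3). With the replicate block the summed differences are the same (-54.0, -37.3 and -47.0), and its sign-flip test cannot go below 0.25 (3 pairs) or 0.50 (2 pairs), so no gene passed 0.05 with or without it; the CTCF comparison's same-numbered deviations correlated at 0.28, -0.09 and 0.23. Of 208 recalculated summed values, 157 stayed within the replicate spread or within 1.5 times, 50 moved further and 1 turned sign. The 157 include the summed differences of the replicate block, which are the same by construction.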
